A study of Homo sapiens with 6 samples.

Results

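The genes described here encode the D-type cyclins (CCND1, CCND2, CCND3), their kinases CDK4 and CDK6, the INK4 inhibitors CDKN2A, CDKN2C and CDKN2D, the inhibitor p27 (CDKN1B) and the retinoblastoma protein (RB1). They were chosen by name, and all 10 were among the 60671 gene rows counted and among the 20734 genes tested. RNA was sequenced from NCI-H69, an established cell line from a human small cell lung cancer. One group of 3 libraries came from cells given the vehicle DMSO, and the other group of 3 from cells given GNF5, an allosteric ABL kinase inhibitor, at 20 µM. Both groups were labelled wild type (WT) and 48 h. The labels give the dose per sample in micromolar and once elsewhere in millimolar, and the conflict is unresolved. The labels do not say that the libraries were separate cultures, so p-values measure the spread between these libraries, which may be technical.

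D-type cyclins bind CDK4 or CDK6, and the active pair phosphorylates RB1 and its relatives, which releases E2F transcription factors and lets a cell pass from G1 into S phase. INK4 proteins bind the kinases and block their pairing with the cyclins, whereas p27 acts on cyclin-kinase complexes, mainly those of CDK2. Small cell lung cancers almost always lose RB1 function, and CDKN2A RNA is typically abundant in tumour cells without a working RB1.

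Levels are counts per 1000000 counts (CPM), scaled between libraries by TMM factors. Log2 fold changes compare GNF5 with DMSO and carry their standard error (SE), and means carry the SD over 3 libraries. A gene is said to have risen or fallen where edgeR's quasi-likelihood test gave a Benjamini-Hochberg adjusted p under 0.05 over all tested genes. Each library held between 46148701 and 60697602 counts, so that 3 counts, the limit used for a gene seen at 0, correspond to 0.0494 to 0.065 per 1000000 counts before TMM scaling. Neuroendocrine markers were abundant in both groups, with 10 genes summing to 3740 to 3820 CPM with DMSO and 3975 to 4140 with GNF5. The 8 leukocyte markers summed to 4.71 to 5.08 CPM with DMSO and 3.49 to 4.41 with GNF5, with CD3E and MS4A1 at 0 counts in all 6 libraries. The 8 lung epithelium markers summed to 11.1 to 12.4 CPM with DMSO and 4.68 to 5.80 with GNF5, with SFTPB at 0 counts. The 8 fibroblast markers summed to 127.1 to 132.8 CPM with DMSO and 68.2 to 76.0 with GNF5, most of it from COL1A2, with COL3A1 at 0 counts. The part of other cells in the results below was not tested.

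With GNF5, 1 D-type cyclin gene and 1 kinase gene rose, and CDKN2A, CDKN2C and CDKN2D, 3 of the 4 INK4 inhibitor genes, fell, whereas the remaining INK4 gene, CDKN2B, rose. CCND2 rose 12.4-fold from a very low level and CDK6 rose 1.88-fold, while CDKN2C and CDKN2D fell to 0.497 and 0.476 of their DMSO level. CCND3 and RB1 also fell, CDKN2A fell and CDKN1B rose by smaller amounts, and CCND1 and CDK4 did not pass the test. In all, 3 of the 10 genes rose and 5 fell. Among all tested genes 31.0% rose and 30.7% fell, or 61.6% in either direction, so the count of changed genes is not read as a property of these 10. The same shares are the background for the counts in lists and near each gene given below. Of the 10, 1 was at least 2-fold higher and 2 were at least 2-fold lower, which holds for 4.95% and 6.69% of all tested genes. The median log2 fold change of the 10 genes was -0.17, against 0.0057 over all tested genes. The groups did not overlap for 8 of the 10, as was the case for 65.9% of all tested genes. In bulk RNA, fewer cells of a kind, such as cells in one phase of the cycle, and less RNA per cell cannot be told apart.

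**Figure D1:**
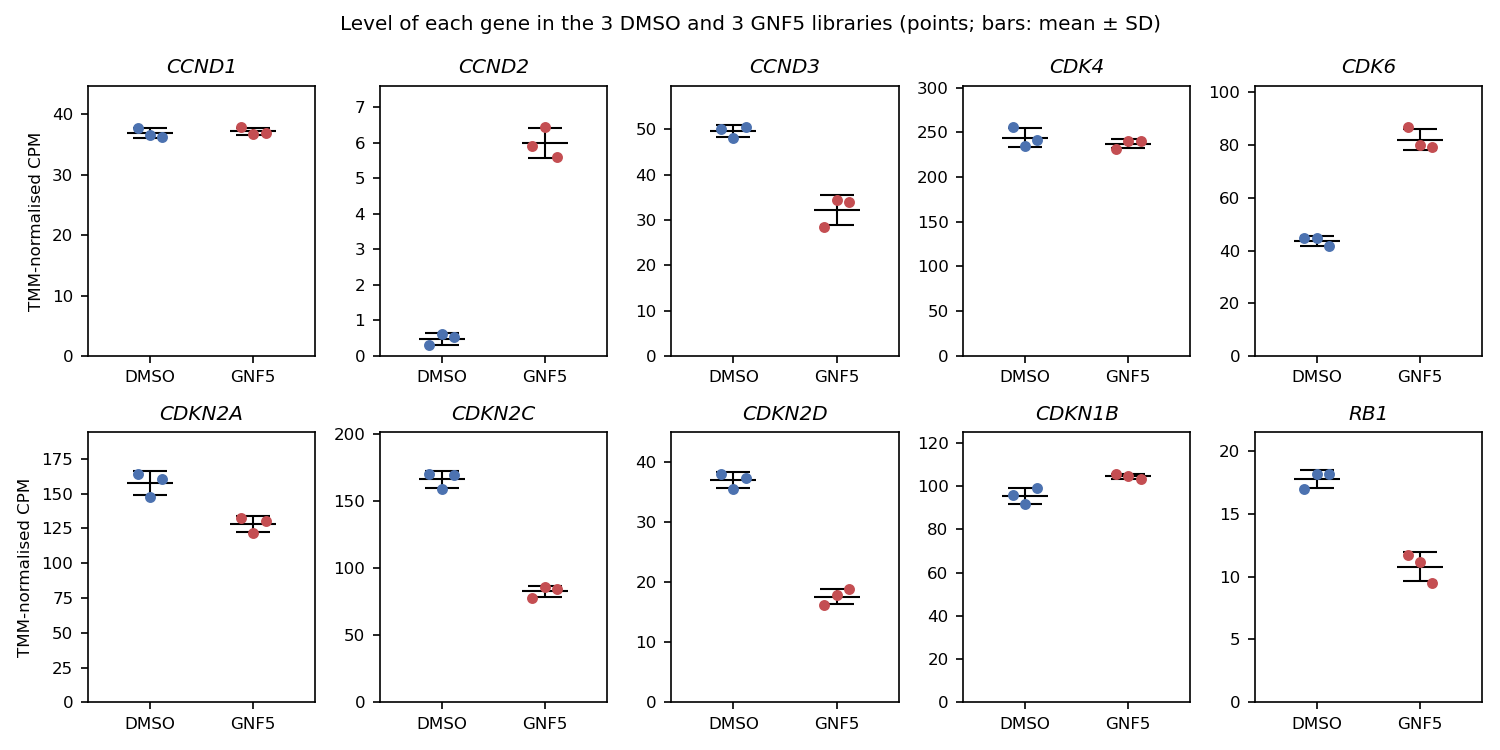
TMM-normalised CPM (vertical axes, each from 0) of the 10 genes in the 3 DMSO libraries (blue) and the 3 GNF5 libraries (red), with the mean and SD as bars. CCND2 and CDK6 are higher in every GNF5 library, CDKN2C, CDKN2D, CCND3 and RB1 are lower in every one, and the points of CCND1 and CDK4 overlap.

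Promoter sequence is shown for CDK4, CDK6 and CDKN2C, which respectively did not pass the test, rose and fell, to show where the E-box CACGTG, the word that MYC family factors bind, was and was not found. Windows of 250 bases before the transcript start came from RefSeq (GRCh38.p14), which gave 14 windows for 8 of the 10 genes, and both strands were searched. The stretches below run 5′ to 3′ on the gene's strand, lie outside the exons of the annotation used for counting, and have CACGTG in capitals.
CDK4, chr12:57752448-57752560, minus strand: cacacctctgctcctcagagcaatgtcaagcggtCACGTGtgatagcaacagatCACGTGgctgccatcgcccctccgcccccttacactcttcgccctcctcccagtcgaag
CDK6, chr7:92836574-92836823, minus strand: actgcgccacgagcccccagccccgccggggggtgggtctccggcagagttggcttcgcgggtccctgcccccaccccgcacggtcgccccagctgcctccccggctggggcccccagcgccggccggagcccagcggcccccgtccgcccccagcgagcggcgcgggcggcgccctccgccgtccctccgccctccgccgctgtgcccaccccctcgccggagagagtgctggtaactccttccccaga
CDKN2C, chr1:50960495-50960744, plus strand: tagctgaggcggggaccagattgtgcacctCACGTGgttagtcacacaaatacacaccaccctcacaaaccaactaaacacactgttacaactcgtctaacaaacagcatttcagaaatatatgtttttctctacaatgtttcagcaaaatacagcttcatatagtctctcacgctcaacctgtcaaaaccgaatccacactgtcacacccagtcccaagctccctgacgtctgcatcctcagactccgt
CDKN2C, chr1:50969995-50970244, plus strand: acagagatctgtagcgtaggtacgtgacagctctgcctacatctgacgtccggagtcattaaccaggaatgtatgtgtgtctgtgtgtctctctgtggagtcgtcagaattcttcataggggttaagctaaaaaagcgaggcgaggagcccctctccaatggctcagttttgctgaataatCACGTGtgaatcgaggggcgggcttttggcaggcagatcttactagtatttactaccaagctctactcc

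The CDK4 window held CACGTG 3 times, at 216 and 196 bases before the start and once nearer to it, and the last of these lies within exons of longer CDK4 transcripts and is not printed. CDKN2C has 3 windows, of which those beginning at 50960495 and 50969995 held 1 match each. Neither window of CDK6 held one, and the same was true of the windows of CCND3, CDKN1B, CDKN2A, CDKN2D and RB1. The only window of RB1, 48476200 to 48476449, lies inside the gene, which starts at 48303744. The sequence before that first start was therefore not searched for any of the words. The windows of CDK4, CDKN1B and CCND3 also lie inside the genes as counted. On their strands these genes start at 57756013, 12715058 and 42050357, and the sequence before those starts was not searched either. Of 35116 windows in the whole table, 6.34% held the word and 0.0797% held it at least 3 times. The E2F words TTTCCCGC, TTTCGCGC, TTTGCCGC and TTTGGCGC, found in 2.79% of all windows, the forkhead word GTAAACA (2.98%), the C/EBP-ATF word TGATGNAA (3.14%) and the cyclic AMP response element TGACGTCA (1.65%) had no match in the 14 windows. The GC box GGGCGG (42.6% of all windows) matched in CDK4, CDK6, CCND3, CDKN1B, CDKN2A, CDKN2C and CDKN2D. These matches describe letters only, and none of them shows that a factor was bound.

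CCND2 (ENSG00000118971, chromosome 12, 4269771 to 4305353, GRCh38), encoding cyclin D2, was close to silent with DMSO. Its counts were 17, 37 and 30 with DMSO against 347, 299 and 294 with GNF5. In CPM these were 0.301, 0.611 and 0.520 with DMSO and 5.90, 6.44 and 5.61 with GNF5, so that the lowest GNF5 library lay far above the highest DMSO library. The log2 fold change was 3.63 ± 0.175 (edgeR adjusted p = 1.18e-16), the 18th highest value among the 20734 tested genes. Both the rise and the call held with each library left out in turn. Averaged over the 6 libraries its level stayed low, and 37.5% of tested genes had a lower mean level than CCND2.

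The rise of CCND2 was not shared by the genes next to it. Of the 4 tested genes within 200 kb, 0 were called by edgeR or by DESeq2, and 0 had an unadjusted p under 0.05. The nearest, TIGAR, a regulator of glycolysis that lies 2410 bases away on the same strand and was named after its values were seen, had 8.60, 6.84 and 6.66 CPM with DMSO and 7.13, 7.84 and 6.14 with GNF5. CCND2-AS1, an antisense RNA that overlaps CCND2, had 0 counts in each DMSO library and 1 in each GNF5 library. Of the exon bases of CCND2, 12.5% are shared with another gene model on the same strand that had 3 counts in all 6 libraries together. Reads that fall wholly in those bases are left out of both genes under the counting defaults, so the level of CCND2 is understated in both groups.

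By a distance between centred log2 CPM profiles over the 6 libraries, the genes most like CCND2 among 13953 genes with a mean log2 CPM of at least 1 were PRSS1, KCNA5 and LAMP3. PRSS1, a trypsinogen gene whose near-identical copies make its value uncertain, rose from 0.820 ± 0.195 to 9.76 ± 0.983 CPM (distance 0.394). KCNA5, a voltage-gated potassium channel gene, rose from 0.613 ± 0.246 to 6.78 ± 0.849 CPM (distance 0.421) and also lies on chromosome 12, at 5043879 to 5046788. LAMP3, a lysosomal membrane protein gene, rose from 1.03 ± 0.274 to 17.0 ± 1.15 CPM (distance 0.576). All 3 profiles share the same 6 libraries and the same contrast.

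CCND1 (ENSG00000110092, chromosome 11, 69641156 to 69654474), encoding cyclin D1, was the D-type cyclin gene that did not pass. It had 37.8, 36.5 and 36.3 CPM with DMSO and 37.9, 36.8 and 37.0 with GNF5, and the groups overlapped. Its log2 fold change was 0.014 ± 0.0453 (edgeR adjusted p = 0.803), and its sign turned under some alternatives. Its neighbours LTO1, on the opposite strand with 10.4% of the exon bases of CCND1 in common, and FGF19, a secreted growth factor gene, rose by 0.29 ± 0.0561 and 0.89 ± 0.166 on the log2 scale.

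CCND3 (ENSG00000112576, chromosome 6, 41934934 to 42050357), encoding cyclin D3, fell. It had 50.2, 48.0 and 50.5 CPM with DMSO and 28.5, 34.5 and 33.9 with GNF5. GNF5 replicate 1 was the lowest of the 6 libraries, and every GNF5 library lay below every DMSO library. The log2 fold change was -0.62 ± 0.0556 (edgeR adjusted p = 1.55e-10), a level 0.65 times that with DMSO. Near all 10 genes together, 27 of 78 tested neighbours rose and 22 fell, against 31.0% and 30.7% of all tested genes. Of the 12 tested genes within 200 kb of CCND3, 8 fell and 3 rose. The lowest p-values were those of USP49, a deubiquitinase gene, at -0.52 ± 0.0424, and TRERF1, a transcriptional regulator gene, at -0.38 ± 0.0411, while larger changes in both directions were seen in genes of lower level.

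Different genes are compared here per kilobase of exon length, which counts all annotated exons and so depends on the annotation. On this scale the makeup of the D-type cyclin RNA shifted. The 3 genes summed to 16.7, 16.1 and 16.4 CPM per kilobase with DMSO and to 13.6, 14.5 and 14.3 with GNF5. CCND3 gave 52.4% ± 0.751 of this sum with DMSO and 39.5% ± 2.82 with GNF5, and CCND1 gave 47.2% ± 0.758 and 55.2% ± 2.74. CCND2 gave 0.226%, 0.476% and 0.396% with DMSO and 5.42%, 5.55% and 4.89% with GNF5. That is a difference of 4.92 percentage points (two-sided exact permutation p = 0.1, the smallest that 3 against 3 libraries can give). CCND2 thus remained the least abundant of the 3 in all 6 libraries despite its 12.4-fold rise.

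CDK6 (ENSG00000105810, chromosome 7, 92604921 to 92836573) rose, while the other kinase gene, CDK4 (ENSG00000135446, chromosome 12, 57747727 to 57756013), did not pass the test. CDK6 had 44.8, 44.6 and 41.5 CPM with DMSO and 86.8, 80.2 and 79.3 with GNF5, with no overlap. Its log2 fold change was 0.91 ± 0.0448 (edgeR adjusted p = 1.82e-16), a value above that of 93.9% of tested genes. CDK4 had 255.8, 234.9 and 241.7 CPM with DMSO and 231.4, 240.2 and 239.7 with GNF5, and the groups overlapped. Its log2 fold change was -0.042 ± 0.0347 (edgeR adjusted p = 0.301).

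CDK4 remained the more abundant kinase gene by far. Per kilobase, the ratio of CDK4 to CDK6 was 22.60, 20.85 and 23.02 with DMSO and 10.54, 11.85 and 11.96 with GNF5, and the log2 ratio changed by -0.95 (two-sided exact permutation p = 0.1, the smallest possible). CDK6 thus made up 4.33% ± 0.221 of the RNA of both kinases with DMSO and 8.05% ± 0.528 with GNF5. The sum of both was 82.5 ± 3.48 CPM per kilobase with DMSO and 83.3 ± 1.27 with GNF5. Of the exon bases of CDK4, 44.2% lie opposite TSPAN31, a tetraspanin gene on the other strand that rose by 0.19 ± 0.0495 on the log2 scale. Counting used strand, per the file headers. Of the 5 tested genes within 200 kb of CDK6, 4 rose and 0 fell, against 31.0% and 30.7% of all tested genes. Among the 4 was GATAD1, a chromatin gene, at 0.46 ± 0.0449. Of the 21 near CDK4, 9 rose and 3 fell, with the lowest p-values for EEF1AKMT3, a lysine methyltransferase gene, at 1.12 ± 0.0912 and OS9, a gene of protein quality control in the endoplasmic reticulum, at 0.37 ± 0.0321.

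Of the 4 INK4 inhibitor genes, 3 fell and CDKN2B rose. CDKN2C (ENSG00000123080, chromosome 1, 50960745 to 50974634), encoding p18, had 170.6, 159.2 and 169.8 CPM with DMSO and 78.0, 85.8 and 84.8 with GNF5. Its log2 fold change was -1.01 ± 0.0398 (edgeR adjusted p = 1.34e-18), the lowest p-value of the 10 genes. Near it, FAF1, a ubiquitin-binding protein gene that begins 478 bases away on the other strand, rose by 0.27 ± 0.0395 on the log2 scale.

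CDKN2D (ENSG00000129355, chromosome 19, 10566460 to 10569059), encoding p19, had 38, 35.4 and 37.3 CPM with DMSO and 16.2, 17.8 and 18.8 with GNF5. Its log2 fold change was -1.07 ± 0.0563 (edgeR adjusted p = 9.18e-16), with a fall of about the size of that of CDKN2C. Both p18 and p19 genes had every GNF5 library below every DMSO library. Of the 14 tested genes within 200 kb of CDKN2D, 8 fell and 2 rose, against 30.7% and 31.0% of all tested genes. The lowest p-values were those of the dynamin gene DNM2 at -0.49 ± 0.0312 and KRI1, a ribosome assembly gene, at -0.46 ± 0.0364. The largest change was a rise of SLC44A2, a choline transporter gene named after its values were seen, from 22.5, 25.1 and 23.3 to 119.6, 84.3 and 90.9 CPM (edgeR adjusted p = 0.000468).

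CDKN2A (ENSG00000147889, chromosome 9, 21967753 to 21995301) encodes p16 and, from another reading frame, ARF, and the gene counts do not separate their transcripts. It had 164.3, 147.7 and 160.4 CPM with DMSO and 132.2, 122 and 130.6 with GNF5. The log2 fold change was -0.30 ± 0.0399 (edgeR adjusted p = 2.5e-07), and the lowest DMSO library lay above the highest GNF5 library. Its antisense neighbour CDKN2B-AS1, which lies opposite 15.4% of its exon bases, fell from 14.6, 15.1 and 14.3 to 10.2, 10.8 and 10.3 CPM (-0.49 ± 0.0708 on the log2 scale).

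The gene of the remaining INK4 inhibitor, CDKN2B (p15), lies 7602 bases from CDKN2A on the same strand and went the other way. It had 5.68, 5.90 and 6.59 CPM with DMSO and 11.3, 9.54 and 9.84 with GNF5, and rose by 0.76 ± 0.0912 on the log2 scale (edgeR adjusted p = 2.99e-08). MTAP, a methionine salvage gene on the far side of CDKN2A, rose by 0.27 ± 0.0384. Within this stretch of chromosome 9, genes thus changed in both directions.

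The summed RNA of the INK4 genes was lower, and CDKN2A made up more of it. Summed per kilobase, CDKN2A, CDKN2C and CDKN2D had 119.7, 110.4 and 118.1 CPM per kilobase with DMSO and 67.2, 68.4 and 70.7 with GNF5, or 117.6 ± 4.99 and 71.3 ± 1.66 with CDKN2B added. CDKN2A gave 31.7%, 30.9% and 31.4% of the sum of 3 with DMSO and 45.5%, 41.2% and 42.6% with GNF5. The difference was 11.8 percentage points (two-sided exact permutation p = 0.1, the smallest possible). CDKN2C was the most abundant of the 3 with DMSO, at 55.2 ± 2.1 CPM per kilobase against 36.4 ± 2 for CDKN2A. With GNF5 they had 27.5 ± 1.39 and 29.6 ± 1.27, and their ranges overlapped. The sum of 3, without CDKN2B, was also set against the RNA of CDK4 and CDK6 together. It was 1.41 ± 0.0354 times as large with DMSO and 0.825 ± 0.0153 times as large with GNF5. The sums, the CDKN2A share and this ratio include ARF transcripts, which the gene counts do not separate from those of p16.

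**Figure D2:**
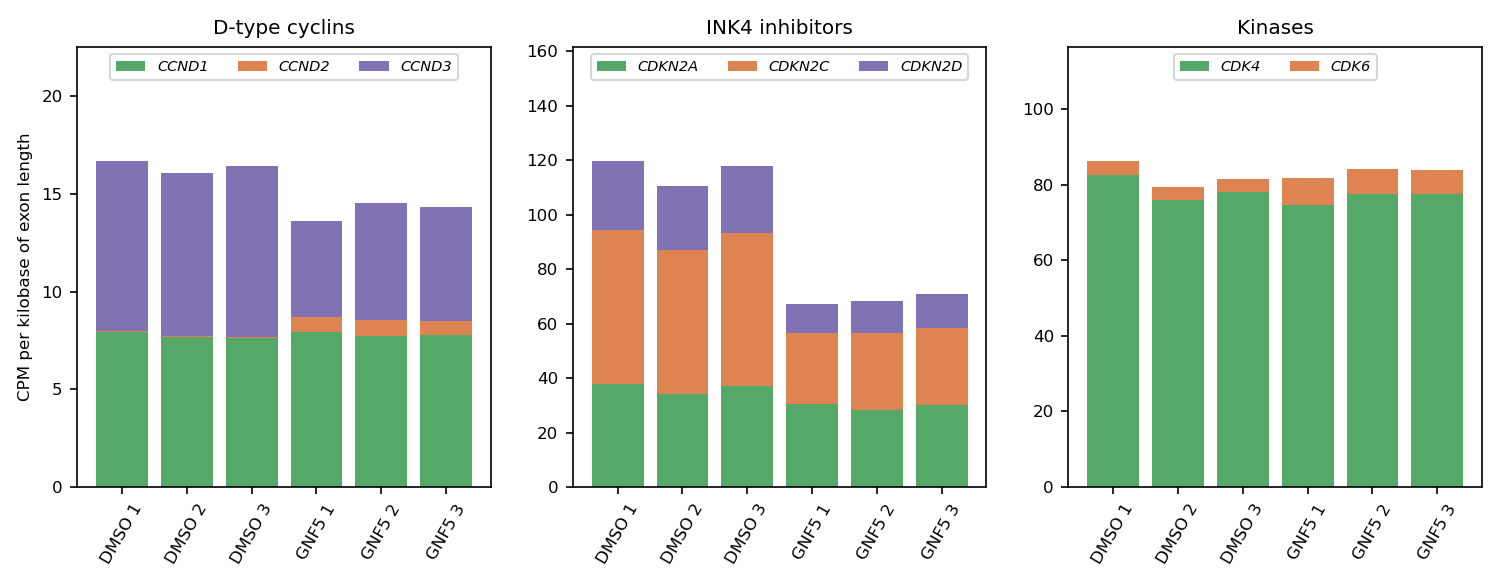
CPM per kilobase of exon length (vertical axes, from 0) in each library, stacked by gene for the D-type cyclins, the INK4 inhibitors CDKN2A, CDKN2C and CDKN2D, and the kinases. The INK4 stack is 110.4 to 119.7 in the DMSO libraries and 67.2 to 70.7 in the GNF5 libraries, while the kinase stack, nearly all CDK4, has overlapping heights in both groups.

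CDKN1B (ENSG00000111276, chromosome 12, 12715058 to 12722369), encoding p27, rose slightly. It had 95.7, 91.5 and 99.2 CPM with DMSO and 105.8, 104.6 and 103.1 with GNF5, with no overlap. The log2 fold change was 0.13 ± 0.0374 (edgeR adjusted p = 0.00352), a level 9.47% higher. Its relatives of the CIP/KIP family fell, namely CDKN1A (p21) with a log2 fold change of -0.75 ± 0.0339 and CDKN1C (p57), an imprinted gene, at -0.62 ± 0.0817. Per kilobase, CDKN1B made up 15.05% ± 0.316 of the RNA of these 3 genes with DMSO and 24.6% ± 0.998 with GNF5. Of 9 tested genes within 200 kb of CDKN1B, 3 rose and 2 fell, among them DUSP16, a MAP kinase phosphatase gene, at 0.66 ± 0.0394 and APOLD1, an endothelial stress gene, at -0.71 ± 0.101.

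Most genes listed for the ubiquitin ligases of p27 fell. Of 8 tested genes, 7 fell and 0 rose, against 30.7% and 31.0% of all tested genes, with a median log2 fold change of -0.33. RBX1, a ring-finger subunit, fell by 0.76 ± 0.0463 on the log2 scale, and CKS1B, the cofactor that helps SKP2 bind p27, fell from 64.4 ± 0.614 to 41.5 ± 0.376 CPM. CDK2AP1, counted in the 7 though it is a CDK2-binding protein gene and not part of a ligase, had -0.73 ± 0.0456. The list on degradation of D-type cyclins was mixed, with 5 of 9 genes higher, 2 lower and a median of 0.15. Its genes AMBRA1 and BTRC did not pass (edgeR adjusted p = 0.333 and 0.0777). Its F-box genes FBXW8 and FBXO31 rose by 0.57 ± 0.0474 and 0.52 ± 0.0516 on the log2 scale, whereas DDB1, the adaptor of CUL4 ligases, fell by 0.41 ± 0.0323. The protein levels that these ligases set were not measured.

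RB1 (ENSG00000139687, chromosome 13, 48303744 to 48599436), the main substrate of the D-type cyclin kinases, was low and fell. It had 16.9, 18.2 and 18.2 CPM with DMSO and 11.7, 11.1 and 9.52 with GNF5, with no overlap. The log2 fold change was -0.72 ± 0.0747 (edgeR adjusted p = 2.05e-09), a level 39.2% lower. The counts do not tell whether these RNAs encode a working protein. Of 4 tested genes within 200 kb, 1 was called, ITM2B, a membrane protein gene that rose by 0.38 ± 0.0437 on the log2 scale.

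Among the relatives and partners of RB1, the direction differed by gene. RBL1 (p107) rose by 0.33 ± 0.0718, and RBL2 (p130) had 0.12 ± 0.0526 and did not pass (edgeR adjusted p = 0.0519). Of the 12 tested pocket protein, E2F and DP genes, 3 rose and 6 fell, against 31.0% and 30.7% of all tested genes. The median log2 fold change of the 12 was -0.16. E2F7, a repressor, fell from 48.5 ± 2.85 to 23.2 ± 0.548 CPM, and 2 of the 3 activator genes, E2F2 and E2F3, had -0.71 ± 0.0381 and -0.44 ± 0.0406. The remaining activator gene, E2F1, had 201.4 ± 7.04 CPM with DMSO and 204.4 ± 2.03 with GNF5 and did not pass (edgeR adjusted p = 0.608). Of the other E2F genes, E2F4 and E2F5 rose by 0.42 ± 0.0509 and 0.31 ± 0.0450 on the log2 scale. E2F8 fell by 0.48 ± 0.0849, and E2F6 did not pass (edgeR adjusted p = 0.0986). Of 20 E2F target genes, 18 fell and 1 rose, with a median of -0.43, among them RRM2 and TK1, both of nucleotide synthesis, at -1.63 ± 0.0453 and -1.40 ± 0.0581.

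Downstream of the D-type cyclins, 6 of 7 tested genes fell and 0 rose, with a median of -0.92. Among all tested genes 30.7% fell and 31.0% rose, which is also the background for the lists named next. CCNE2, a cyclin E gene, CCNA2 and the germ-line cyclin A gene CCNA1 had log2 fold changes of -1.04 ± 0.0395, -1.15 ± 0.0446 and -1.68 ± 0.0855. Other inhibitor genes numbered 4, of which 3 fell and 1, CDKN2B, rose, and CDKN3, which encodes a phosphatase that acts on CDK2, had -0.95 ± 0.0522. Of 6 genes of the CDK-activating kinase and the chaperones of CDK4 and CDK6, 2 rose and 3 fell, with HSP90AA1 and CDC37 at -0.59 ± 0.0337 and -0.18 ± 0.0338 and MNAT1 at 0.22 ± 0.0501. Of 13 tested cyclins and kinases with other roles, 3 rose and 8 fell, with the lowest p-values for CCNO, CCNG2 and CCNY at -0.58 ± 0.0433, -0.78 ± 0.0593 and -0.57 ± 0.0432.

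Among 26 tested genes known to regulate transcription of D-type cyclin or inhibitor genes, 9 rose and 7 fell, with a median of 0.013. Over all tested genes 31.0% rose and 30.7% fell. ID4 rose from 131.7 ± 2.24 to 224.9 ± 6.45 CPM and ID1 fell from 144.3 ± 9.01 to 80.6 ± 4.25, both encoding proteins of the ID family. ID2 and ID3 of that family also fell, by 0.50 ± 0.0476 and 0.53 ± 0.0507 on the log2 scale. MYCN, the amplified MYC family gene of this line, rose by 0.64 ± 0.0338 on the log2 scale. Of the named RNAs at the loci of the 10 genes, CDKN2A-DT and LINC01488 had 0 counts in all 6 libraries.

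**Figure D3:**
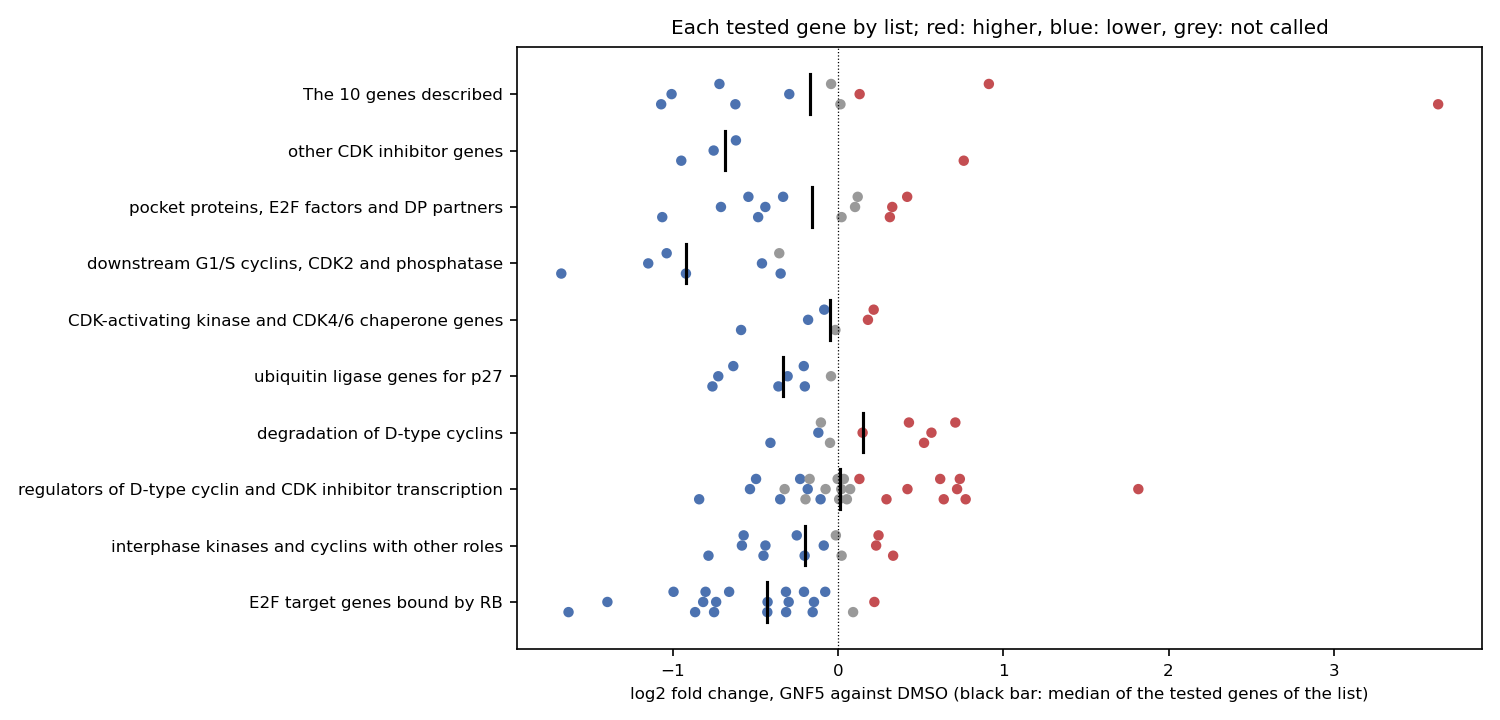
Log2 fold change of GNF5 against DMSO (horizontal axis) for each tested gene of the 10 genes described and of 9 lists, with red for higher, blue for lower and grey for genes that did not pass, and a black bar at the median. CCND2 stands far to the right at 3.63, and the lists of downstream G1/S genes and of E2F targets lie mostly left of 0, with medians of -0.92 and -0.43.

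Ordered by level per kilobase with DMSO, CDK4 led at 78.9 ± 3.44, followed by CDKN2C, CDKN1B at 37.2 ± 1.5, CDKN2A, CDKN2D at 24.5 ± 0.888, CCND3 at 8.60 ± 0.231, CCND1 at 7.74 ± 0.173, CDK6 at 3.56 ± 0.148, RB1 at 2.76 ± 0.112 and CCND2 at 0.0598 ± 0.02. CDKN1B and CDKN2A did not differ there beyond their spread. With GNF5, CDK4 led at 76.6 ± 1.6, followed by CDKN1B at 40.7 ± 0.514, CDKN2A, CDKN2C, CDKN2D at 11.7 ± 0.868, CCND1 at 7.82 ± 0.123, CDK6 at 6.71 ± 0.336, CCND3 at 5.60 ± 0.576, RB1 at 1.68 ± 0.175 and CCND2 at 0.749 ± 0.0529. CDK6 thus moved from below CCND3 to above it, in all 3 libraries of each group. CDKN2A and CDKN2C were the neighbours whose ranges overlapped with GNF5.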

How the data were processed

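RNA sequencing counts of 6 NCI-H69 libraries were used, 3 with DMSO and 3 with GNF5, grouped and numbered by their titles. The authors deposited raw fragment counts, made with featureCounts 1.6.1 on an Ensembl GRCh38 gene set, per the file headers. Pairs were assigned to exons of the strand opposite to the first read, and multi-mapped or ambiguous pairs were left out, per the headers' command and its defaults. HTSeq, STAR, Trim Galore, GRCh37 and DESeq2 are listed without roles, per the submitters' processing notes. The headers were followed, and the build of the alignment was not settled by these sources.

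Symbols were looked up by ID (60401 of 60671 rows). EdgeR 4.0.16 (R 4.3.3, robust quasi-likelihood test, TMM, default expression filter, no covariate) compared GNF5 with DMSO, and p-values were Benjamini-Hochberg adjusted over 20734 genes. The 39937 removed genes held 0.063% of counts. SE is the log2 fold change divided by the square root of F. Levels per kilobase use the exon length in the files. Shares were compared by exact permutation tests. The fit was tested on simulated data in which only a small part of the genes was changed. That test does not cover a contrast in which 61.6% of genes pass. Limits from 3 counts cover counting error only. No replicates were close enough to be one library (chi-square per degree of freedom from 3.02 to 8).

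The genes described and the lists were chosen with earlier results of these data known. Besides the 10 genes, at most 3 called genes per list with the lowest p-values and a mean log2 CPM of at least 1, at most 2 called genes within 200 kb of each gene, direct antisense or overlapping partners, and the 3 profiles nearest to CCND2 were named. RBL1, RBL2, E2F1, E2F4, E2F5, E2F6, E2F8, ID2, ID3, CDKN1C, AMBRA1, BTRC, SLC44A2 and TIGAR fall outside this rule. They were named after their values were seen. Not every gene so selected is reported here. Alternatives were DESeq2 1.42.0, DESeq2 size factors, upper-quartile factors, other expression filters, a non-robust fit, a replicate block, no division by length and leaving out each library.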

Additional observations from a re-analysis of the deposited data

How the results depend on the processing

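All 13 alternatives to the fit gave 3 higher and 5 lower genes among the 10. The sign of CCND1, which did not pass in any of them (adjusted p 0.681 to 0.988), turned with upper-quartile factors (-0.012) and when DMSO replicate 2 or 3 was left out (range over the 6 left-out libraries -0.00196 to 0.0272, with -0.00098 without DMSO replicate 2). CDKN1B, the smallest called change, kept its call, with adjusted p from 0.00312 to 0.0421. The share of CCND2 moved by 7.38 percentage points with no division by exon length and by 5.58 with only the exon bases it does not share, a setting chosen after seeing the data, against 4.92. Over all genes, 5693 to 6420 were higher and 5670 to 6733 lower. With a replicate block 6279 genes were higher and 6196 lower, and it changed no call among the 10. Same-numbered libraries did not deviate together (r = -0.103, -0.0265 and 0.00238), so the numbers were not taken to pair them. CCND2 rests on 17 to 37 counts per DMSO library, which limits the precision of its fold change.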
